A study of Mus musculus with 8 samples.

Results

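Cultured macrophages of the mouse liver were examined for 10 genes whose products build, bind, modify or crosslink the extracellular matrix: *Dcn*, *Lox*, *Chst11*, *Thbs1*, *Fn1*, *Sparc*, *Col4a1*, *Col4a2*, *Ecm1* and *Tgm2*. They are 10 of the 55401 genes of the deposited count table, found by symbol. *Dcn*, *Lox* and *Chst11* (3 genes) were chosen by their measured rise with cholesterol crystals in these same libraries. Their crystal responses are therefore described here without a test, and tests of the crystal response cover the other 7 genes. Differences between liver labels are tested for all 10. For the 3 chosen genes those tests use the libraries of the choice, so their p-values are not independent of it.

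The study asked how cholesterol crystals change macrophages from livers with and without steatosis. Poly(A) RNA was sequenced in 8 libraries, 2 in each of 4 groups, all from hepatic macrophages of mice on the C57BL/6J background, selected from the non-parenchymal fraction by magnetic separation with an antibody to the macrophage surface protein F4/80 and cultured on collagen-coated plates. The group labelled normal came from wild-type (WT) mice on a standard diet, and the group labelled steatotic from MC4R-KO mice that had eaten a Western diet over 6 to 10 weeks. Genotype and diet changed together, so their parts in any difference between the labels cannot be told apart. Cells of each label received vehicle (Veh) or cholesterol crystals (CC) at 500 µg/ml for 24 h. The labels do not say whether the 2 libraries of a group came from separate animals, so p-values measure only the spread between these libraries, which may be technical.

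The libraries held 58668655 to 74529462 counts each. *Mc4r*, the gene disrupted in the MC4R-KO mice, had 0 counts in the 4 libraries labelled normal and 0.299 to 0.966 CPM, which are counts scaled to the same library total, in the 4 labelled steatotic. An intact gene may give 0 counts where it is not transcribed, and a disrupted gene may still give reads. These low values, of 22 to 72 counts, therefore cannot decide whether the labels hold, and transcription of the disrupted gene was not tested. Every direction below is between libraries as labelled. Macrophage markers were abundant in all libraries, but their levels moved with CC and with the label. The 12 marker genes, led by *Lyz2*, *Cd68* and *Cd5l*, summed to 19350 to 19930 CPM with normal Veh, 14700 to 15080 with normal CC, 17900 to 18460 with steatotic Veh and 12670 to 14170 with steatotic CC. With CC 9 of the 12 were lower with each label, and 0 and 2 higher with the labels normal and steatotic. With the label steatotic 7 were higher and 4 lower, with Veh and again with CC. All tested genes called for the label were 30.7% with Veh and 28.8% with CC. *Lyz2* was at 8228 and 7908 CPM with normal Veh and 3429 and 3591 with steatotic Veh. *Cd5l* was at 1948 and 1919 CPM with normal Veh and 3122 and 3162 with steatotic Veh. The part of these markers in the crystal responses and label differences was not tested. Fold changes are on the log2 scale from edgeR's quasi-likelihood test, which also applies the TMM scaling factors, with their standard error (SE), and adjusted p-values are Benjamini-Hochberg values over all 15202 tested genes. A gene is said to rise, fall or differ where its adjusted p-value is under 0.05.

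The extracellular matrix is a mesh of collagens, adhesive glycoproteins and proteoglycans. In the liver most fibrillar matrix is laid down by hepatic stellate cells, while sinusoidal endothelial cells and macrophages add basement membrane and matricellular proteins. Lysyl oxidases and transglutaminases tie the fibres together through covalent bonds, which makes scar tissue stiffer and harder to degrade. Matricellular proteins such as thrombospondin 1 and SPARC carry little load and act by binding growth factors, receptors and other matrix proteins.

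Most of these genes were higher in the libraries labelled steatotic, and the crystal responses of the 7 not chosen for a rise lay between -0.43 and 1.23 on the log2 scale. With Veh, 9 of the 10 genes were higher in the libraries labelled steatotic and *Lox* was not called, where 30.7% of all tested genes were called, 16.4% as higher and 14.3% as lower. With CC, 8 of 10 were higher, where 28.8% of all tested genes were called, 15.9% as higher and 12.9% as lower. Both counts include *Dcn* and *Chst11*, chosen for their rise in these same libraries. Of the 7 genes not chosen for a rise, 4 were higher with CC and 0 lower among libraries labelled normal, against 11.8% of all tested genes called, 6.27% as higher and 5.54% as lower. The count of 4 fell to 1, *Tgm2*, when only those 4 libraries were fitted or without normal CC library 1, and to 0 without normal Veh library 1 or normal CC library 2. The count of 0 lower was the same in edgeR at an unadjusted p under 0.05 and in DESeq2, and became 1 without normal CC library 1, with *Ecm1* at -0.62 (adjusted p = 0.00188). In the libraries labelled steatotic 1 of the 7 rose and 1 fell with CC, against 22.9% called, 12.0% as higher and 10.9% as lower. The libraries of the 2 groups did not overlap for 6 of the 7 genes in each CC comparison, against 55.7% of all tested genes with the label normal and 61.7% with the label steatotic. Between the labels the libraries stood apart for all 10 genes, against 68.2% of all tested genes with Veh and 65.5% with CC.

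**Figure D1:**
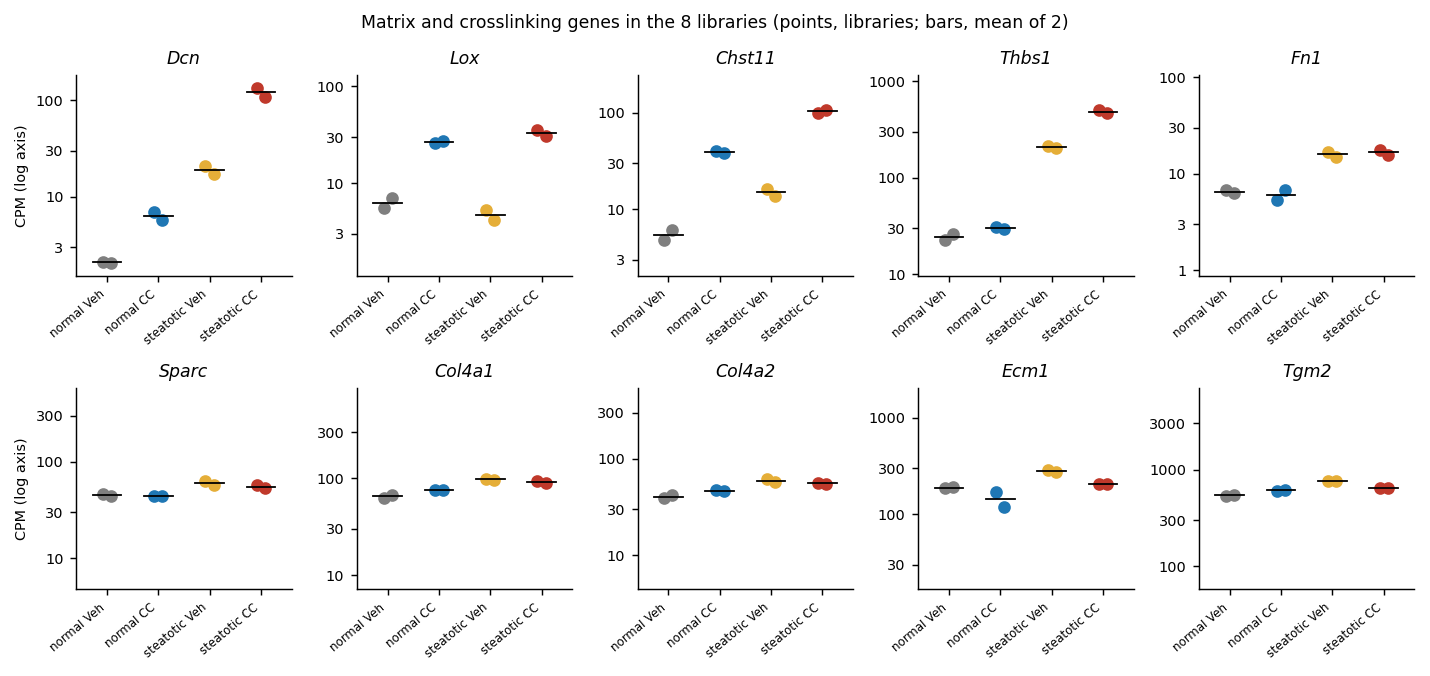
CPM of the 10 genes in the 8 libraries, with 1 panel per gene, 2 points per group, a bar at the mean and a log axis that covers the same fold range in every panel. *Dcn* ran from 2.07 CPM in the lowest library to 135.0 CPM in the highest, and the 4 groups of *Thbs1* lay between 22.7 and 498.1 CPM, while *Sparc* stayed between 44.2 and 63.3 CPM.

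*Dcn* (ENSMUSG00000019929.16) encodes decorin, a small leucine-rich proteoglycan that binds collagen fibrils and transforming growth factor β. It lies on chromosome 10 of GRCm38 at 97479609 to 97518143 on the plus strand. In the libraries labelled normal, *Dcn* was at 2.14 and 2.07 CPM with Veh and at 7.0 and 5.69 CPM with CC. In the libraries labelled steatotic it was at 20.8 and 17.4 CPM with Veh and at 135.0 and 107.9 CPM with CC. The 4 groups did not overlap, and even the lowest steatotic Veh library lay above both normal CC libraries. As a description, the mean rose 3.02-fold with CC among libraries labelled normal and 6.37-fold in those labelled steatotic, log2 fold changes of 1.63 and 2.69. The label difference did not choose the gene, but it shares libraries with the rise that did. Its log2 fold change was 3.22 with Veh (SE 0.167, adjusted p = 1.663e-05) and 4.28 with CC (SE 0.168, adjusted p = 4.717e-06).

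Decorin is best known as a product of stellate cells and fibroblasts, so markers of those cells were read in the same libraries. Of 18 stellate and fibroblast markers only 5 passed the filter of 0.5 CPM in 1 library. The 5 were led by *Hgf*, the growth factor gene, at 26.95 and 28.58 CPM in the steatotic Veh libraries and at 12.08 and 13.61 CPM in the steatotic CC libraries. *Tagln* was at 0.51 to 3.78 CPM and *Rgs5* at 0.965 to 2.37 CPM. *Ngfr* had 0 counts in all libraries, and *Col1a1*, *Col1a2*, *Col3a1*, *Lum*, *Lrat* and *Des*, named after their values were seen, did not exceed 0.40 CPM in any library. In the steatotic CC libraries, where *Dcn* reached 135.0 and 107.9 CPM, *Col1a1*, *Col1a2* and *Col3a1* together summed to 0.457 and 0.134 CPM. The summed level of the 18 markers was 15.8 to 18.9 CPM with normal Veh, 14.0 to 14.7 with normal CC, 32.4 to 34.9 with steatotic Veh and 19.3 to 20.02 with steatotic CC. With Veh, 2 of the 5 tested markers were higher and 0 lower with the label steatotic (*Hgf* and *Tagln*). The part of stellate or fibroblast RNA in the *Dcn* result was not tested. In bulk RNA, fewer cells of a type and less RNA per cell cannot be told apart.

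**Figure D2:**
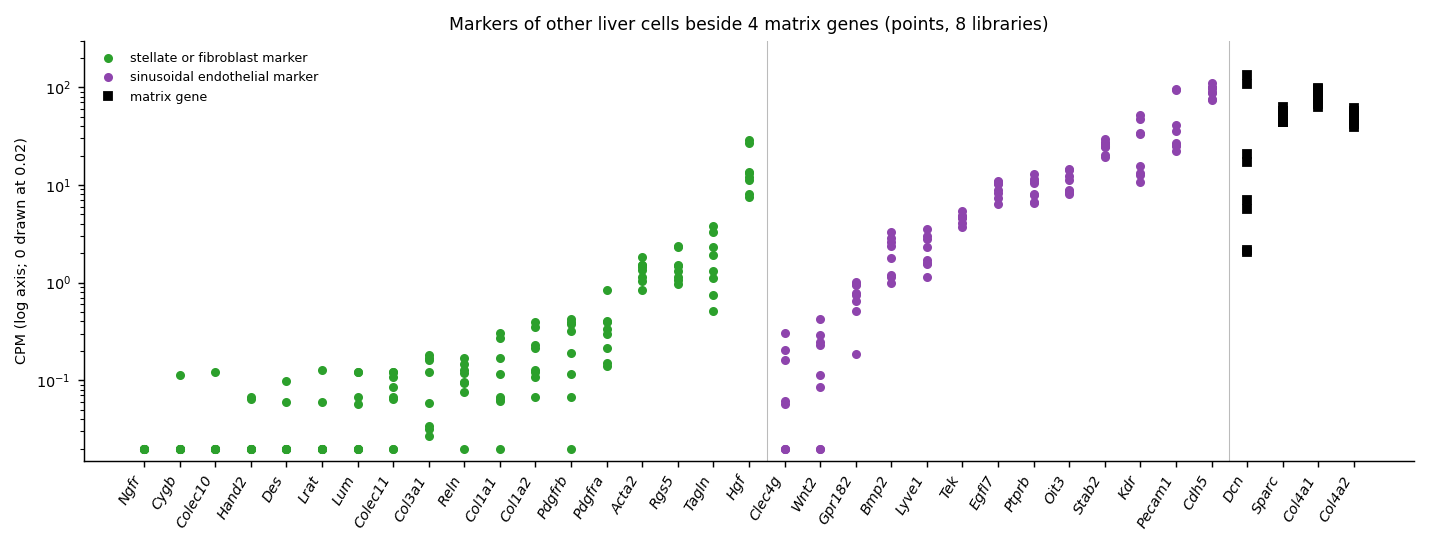
CPM on a log axis of all 18 stellate or fibroblast markers, all 13 sinusoidal endothelial markers and 4 matrix genes, with 1 point per library, markers in order of their mean and a value of 0 drawn at 0.02. Of the 18 markers, 13 lie below 0.5 CPM in all 8 libraries and *Hgf* is highest at up to 28.6 CPM, while *Dcn* spans 2.07 to 135.0 CPM and *Col4a1* 62.5 to 99.0 CPM.

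*Chst11* (ENSMUSG00000034612.7, chromosome 10 at 82985498 to 83195900, plus strand) encodes a sulfotransferase that adds sulfate to the chondroitin chains carried by proteoglycans such as versican. It was at 4.79 and 6.04 CPM with normal Veh, 40.1 and 37.9 with normal CC, 16.3 and 13.8 with steatotic Veh, and 99.8 and 105.8 with steatotic CC. The groups did not overlap, and the rise with CC was about the same size on the log2 scale with both labels. As a description, the rise was 7.21-fold in the libraries labelled normal and 6.82-fold in those labelled steatotic, and the difference between the 2 responses was -0.10 on the log2 scale. The label difference was 1.52 with Veh (SE 0.125, adjusted p = 8.89e-05) and 1.42 with CC (SE 0.120, adjusted p = 0.0001221).

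The stretch before the start of a gene is where many factors bind, and RefSeq promoters of GRCm38.p6 matched 5 of the 10 genes: *Chst11*, *Ecm1*, *Col4a1*, *Col4a2* and *Sparc*. The 2 windows that lie wholly outside annotated exons are shown, since 1 belongs to a gene chosen for its rise with CC and the other to *Ecm1*, which was not called with CC. The *Chst11* window is chr10:82985247-82985496 on the plus strand and the *Ecm1* window chr3:95739570-95739819 on the minus strand, each of 250 bases written 5′ to 3′. Capitals mark matches to the motifs searched on both strands: TGANTCA for AP-1, GCGTGGGCG and GCGGGGGCG for EGR1, CACGTG for the E-box, GGGCGG for Sp1, CCAAT for NF-Y and TATAAA for the TATA box, of which GGGCGG can overlap the second EGR1 form.
Chst11: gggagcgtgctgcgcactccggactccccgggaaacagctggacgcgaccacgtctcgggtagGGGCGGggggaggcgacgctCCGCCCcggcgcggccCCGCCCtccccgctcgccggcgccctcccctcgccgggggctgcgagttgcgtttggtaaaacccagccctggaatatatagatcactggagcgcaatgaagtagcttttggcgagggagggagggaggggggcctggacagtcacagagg
Ecm1: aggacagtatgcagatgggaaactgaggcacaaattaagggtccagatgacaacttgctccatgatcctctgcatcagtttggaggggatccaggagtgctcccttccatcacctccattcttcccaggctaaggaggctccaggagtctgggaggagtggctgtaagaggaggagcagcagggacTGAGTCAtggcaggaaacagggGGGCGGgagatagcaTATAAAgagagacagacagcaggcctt
The *Chst11* window held GGGCGG on the gene's strand 187 bases before the start and its reverse complement 167 and 151 bases before the start, and its GC content was 70.0%. GGGCGG occurs in 32.7% of the 32851 promoter windows of this length. The *Ecm1* window held TGAGTCA 64 bases, GGGCGG 42 bases and TATAAA 27 bases before the start, motifs found in 6.75%, 32.7% and 12.4% of the windows. These matches are a description of letters and say nothing on binding.

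*Lox* (ENSMUSG00000024529.14, chromosome 18 at 52516067 to 52529867, minus strand) encodes lysyl oxidase, which oxidises lysines of collagen and elastin so that the fibres crosslink. *Lox* was at 5.48 and 7.08 CPM with normal Veh, 26.3 and 27.2 with normal CC, 5.27 and 4.16 with steatotic Veh, and 35.1 and 30.7 with steatotic CC. As a description, CC raised the mean 4.26-fold in the libraries labelled normal and 6.98-fold in those labelled steatotic. Among the 10 genes *Lox* alone had no called difference between the labels with either treatment, with a log2 fold change of -0.37 with Veh (SE 0.159, 95% interval -0.74 to 0.00317, adjusted p = 0.1254) and of 0.32 with CC (SE 0.152, adjusted p = 0.1596).

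*Tgm2* (ENSMUSG00000037820.15, chromosome 2 at 158116402 to 158146436, minus strand) encodes transglutaminase 2, which joins glutamine and lysine residues of matrix proteins, and it was the most abundant of the 10 genes in every group. Its libraries were at 529.1 and 550.5 CPM with normal Veh, 598.8 and 617.2 with normal CC, 755.8 and 768.1 with steatotic Veh, and 646.6 and 652.2 with steatotic CC. With the label normal *Tgm2* rose with CC by 0.21 on the log2 scale (SE 0.0350, adjusted p = 0.008474) and fell by 0.21 in those labelled steatotic (SE 0.0350, adjusted p = 0.003733). The 2 responses differed by -0.42 (SE 0.0495, adjusted p = 0.00576), where 3.22% of all tested genes had a called difference between responses, 1.95% positive and 1.27% negative. Of the 7 genes, *Thbs1* and *Tgm2* had one. The label difference shrank from 0.54 with Veh (adjusted p = 2.507e-05) to 0.12 with CC (adjusted p = 0.03664). The rise in the normal libraries had adjusted p = 0.05268 without normal Veh library 1 and 0.0623 without normal CC library 2. The small label difference with CC had adjusted p-values of 0.0371 to 0.184 as each library was left out and lost its call without 6 of the 8, those of normal CC, steatotic Veh and steatotic CC. It was also lost with DESeq2 (adjusted p = 0.1112), with library size only (adjusted p = 0.08121) and in its own 4 libraries alone (adjusted p = 0.07964).

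**Figure D3:**
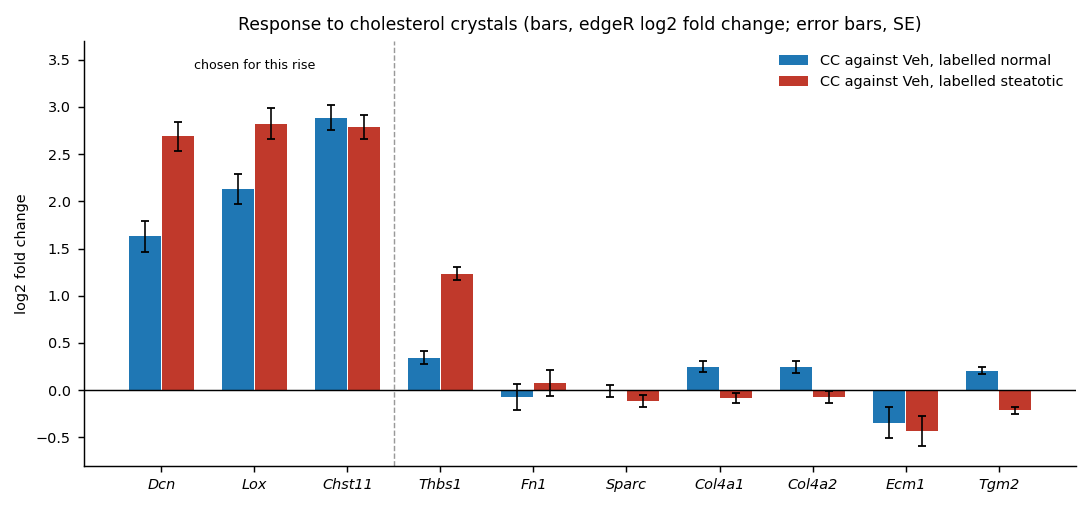
Log2 fold change of CC against Veh for the 10 genes, with bars for libraries labelled normal and steatotic and the edgeR SE as error bars, and the 3 genes chosen for this rise to the left of the dashed line. *Dcn*, *Lox* and *Chst11* stand between 1.63 and 2.89, *Thbs1* at 0.35 and 1.23, and *Tgm2* at 0.21 and -0.21.

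*Thbs1* (ENSMUSG00000040152.8, chromosome 2 at 118111876 to 118127133, plus strand) encodes thrombospondin 1, a matricellular glycoprotein known for activating latent transforming growth factor β and for binding CD36 and CD47. It was at 22.7 and 26.0 CPM with normal Veh, 30.8 and 29.5 with normal CC, 214.8 and 202.3 with steatotic Veh, and 498.1 and 470.1 with steatotic CC. Both steatotic groups lay far above both normal groups. The label difference was 3.14 on the log2 scale with Veh (SE 0.0756, adjusted p = 3.957e-07) and 4.03 with CC (SE 0.0784, adjusted p = 1.538e-07), a mean 16.05 times as high with CC. *Thbs1* rose with CC by 1.23 in libraries labelled steatotic (SE 0.0700, adjusted p = 1.989e-05) and by 0.35 in those labelled normal (SE 0.0710, adjusted p = 0.01979). The 2 responses differed by 0.89 (SE 0.0992, adjusted p = 0.005308). The smaller rise lost its call when only its own 4 libraries were fitted (adjusted p = 0.07022) and when normal Veh library 1 or either normal CC library was left out, with adjusted p up to 0.106. Platelets are another source of thrombospondin 1, and the 6 platelet markers summed to 0.864 to 1.76 CPM over all libraries, with 0 of the 2 tested called with CC in either label and 1 lower with the label steatotic with Veh. Their part in the *Thbs1* result was not tested. The genes of both receptors were measured in the same libraries. *Cd36* was at 958.9 and 984.0 CPM with normal Veh, 960.5 and 985.5 with normal CC, 1356 and 1494 with steatotic Veh, and 1757 and 2048 with steatotic CC. With the label steatotic it rose with CC by 0.43 (adjusted p = 0.006992) and with the label normal it was not called (0.04, adjusted p = 0.8138). *Cd47* was at 366.5 and 399.6 CPM with normal Veh, 333.8 and 329.1 with normal CC, 733.6 and 738.8 with steatotic Veh, and 584.6 and 619.6 with steatotic CC. It fell with CC by 0.27 in the libraries labelled steatotic (adjusted p = 0.005697) and was not called in those labelled normal (-0.17, adjusted p = 0.06521).

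*Fn1* (ENSMUSG00000026193.15, chromosome 1 at 71585520 to 71653200, minus strand) encodes fibronectin, an adhesive glycoprotein on which collagen fibrils are assembled and which cells hold through integrins. It was low, at 6.73 and 6.33 CPM with normal Veh, 5.32 and 6.80 with normal CC, 16.7 and 15.1 with steatotic Veh, and 17.6 and 15.7 with steatotic CC. Libraries of the 2 labels did not overlap, while Veh and CC libraries of each label did. The label difference was 1.33 with Veh (SE 0.141, adjusted p = 0.0003172) and 1.48 with CC (SE 0.142, adjusted p = 0.0002195). The CC response was -0.07 with the label normal (95% interval -0.40 to 0.26, adjusted p = 0.8155) and 0.08 with the label steatotic (-0.24 to 0.40, adjusted p = 0.744). Hepatocytes also make fibronectin. The 11 hepatocyte markers in the table, led by *Alb*, *Hp* and *Apoa2*, summed to 62.3 to 64.5 CPM with normal Veh and to 4.23 to 4.92 CPM with steatotic Veh, and their part in the *Fn1* result was not tested.

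*Ecm1* (ENSMUSG00000028108.15, chromosome 3 at 95734147 to 95739569, minus strand) encodes extracellular matrix protein 1, a secreted glycoprotein that keeps latent transforming growth factor β in its inactive form in the liver. Its libraries were at 185.1 and 193.0 CPM with normal Veh, 171.0 and 119.8 with normal CC, 285.5 and 276.4 with steatotic Veh, and 207.2 and 204.4 with steatotic CC. The normal CC libraries stood apart from each other by 1.43-fold, and each CC library lay below the Veh libraries of its label. The CC response was -0.34 with the label normal (SE 0.159, adjusted p = 0.2621) and -0.43 with the label steatotic (SE 0.159, adjusted p = 0.1225), neither past the threshold. Without normal CC library 1 the first was -0.62 (adjusted p = 0.00188), and without normal CC library 1 or 2 the second passed as well (adjusted p = 0.0008594 and 0.0008317). It also passed with DESeq2 (adjusted p = 0.006566) and with its own 4 libraries alone (adjusted p = 0.001422). *Ecm1* was higher with the label steatotic by 0.62 with Veh (SE 0.159, adjusted p = 0.03602), a call lost without any 1 of the 4 Veh libraries or either steatotic CC library, with adjusted p up to 0.158, and lost when every gene with any count was tested (adjusted p = 0.1219). The difference of 0.53 with CC missed the threshold (adjusted p = 0.06091) and passed it with DESeq2 (adjusted p = 0.0005406). It was 0.81 without normal CC library 1 (adjusted p = 0.0002166) and 0.29 without normal CC library 2 (adjusted p = 0.01105).

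*Sparc* (ENSMUSG00000018593.13, chromosome 11 at 55394500 to 55423183, minus strand) encodes a matricellular protein that binds collagen, type IV among others. It was at 46.8 and 44.5 CPM with normal Veh, 44.2 in both normal CC libraries, 63.3 and 57.4 with steatotic Veh, and 57.1 and 53.2 with steatotic CC. It was higher with the label steatotic by 0.45 with Veh (SE 0.0681, adjusted p = 0.001925) and 0.34 with CC (SE 0.0681, adjusted p = 0.007641). Its CC response was -0.01 (95% interval -0.17 to 0.15, adjusted p = 0.9564) with the label normal and -0.11 (-0.27 to 0.04, adjusted p = 0.2913) with the label steatotic.

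*Col4a1* and *Col4a2* encode the α1 and α2 chains that assemble in the network of type IV collagen, the main collagen of basement membranes. The genes lie head to head on chromosome 8, *Col4a1* (ENSMUSG00000031502.11) on the minus strand at 11198423 to 11312826 and *Col4a2* (ENSMUSG00000031503.13) on the plus strand at 11312805 to 11449287, with 22 exon bases shared. Whether the counting used strand is not given in the sources used here, and the promoter window of each lies in an annotated exon of the other. *Col4a1* was at 62.5 and 68.1 CPM with normal Veh, 76.1 and 75.3 with normal CC, 99.0 and 96.3 with steatotic Veh, and 93.5 and 88.9 with steatotic CC. *Col4a2* was at 39.0 and 41.6 CPM with normal Veh, 46.9 and 46.6 with normal CC, 61.8 and 56.9 with steatotic Veh, and 56.5 and 54.8 with steatotic CC. The ratio of *Col4a1* to *Col4a2* CPM stayed between 1.60 and 1.69 in the 8 libraries, and per kb of exon between 1.42 and 1.502.

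Both chains were higher with the label steatotic. With Veh the difference was 0.63 for *Col4a1* (SE 0.0558, adjusted p = 0.0001243) and 0.60 for *Col4a2* (SE 0.0628, adjusted p = 0.0002917), and with CC it was 0.29 (adjusted p = 0.006323) and 0.28 (adjusted p = 0.01364). The last call was lost without either normal CC library or steatotic CC library 1, with adjusted p up to 0.0684. CC raised *Col4a1* by 0.25 (SE 0.0558, adjusted p = 0.02682) and *Col4a2* by 0.25 (SE 0.0628, adjusted p = 0.04287) in the libraries labelled normal, and neither was called in those labelled steatotic, at -0.08 (95% interval -0.21 to 0.05) and -0.08 (-0.22 to 0.07). The 2 responses differed by -0.33 for *Col4a1* (adjusted p = 0.07664) and by -0.32 for *Col4a2* (adjusted p = 0.1194), so a difference between the labels in response was not shown. Fitted in their own 4 libraries alone, neither rise was called (adjusted p = 0.05845 and 0.0657). The rise of *Col4a1* was lost without normal Veh library 1 or either normal CC library, with adjusted p up to 0.125. The rise of *Col4a2* was lost with the replicate number as a block (adjusted p = 0.06977), with scaling by library size only (adjusted p = 0.06797) and without 7 of the 8 libraries in turn, all but steatotic Veh library 2, with adjusted p up to 0.19.

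Sinusoidal endothelial cells, which the F4/80 selection would leave behind if complete, are a further source of type IV collagen and SPARC. The 13 endothelial markers summed to 171.9 to 181.8 CPM with normal Veh and 204.3 to 207.1 with normal CC. They summed to 271.6 to 278.2 CPM with steatotic Veh and 250.5 to 265.4 with steatotic CC. The groups stood in the same order for *Col4a1* and *Col4a2*, but the single markers did not all move alike. The sum was led by *Cdh5*, *Pecam1* and *Kdr*. Of the 11 tested, 4 were higher (*Cdh5*, *Pecam1*, *Kdr* and *Lyve1*) and 2 lower (*Stab2* and *Bmp2*) with the label steatotic with Veh. *Stab2* was at 24.8 and 26.5 CPM with normal Veh and at 19.4 and 20.2 CPM with steatotic Veh. With CC, 2 of the 11 were higher and 0 lower with the label normal, where 11.8% of all tested genes were called. With the label steatotic 4 were higher and 1 lower with CC, where 22.9% were called. There *Pecam1* was at 96.1 and 94.3 CPM with Veh and 35.5 and 40.7 with CC. *Kdr* was at 34.2 and 33.6 CPM with steatotic Veh and 52.0 and 47.5 with steatotic CC. The part of endothelial RNA in the type IV collagen and *Sparc* results was not tested. Markers of lymphocytes moved with the label as well, with 7 T and natural killer cell markers summing to 1.03 to 1.16 CPM with normal Veh and 14.0 to 16.3 CPM with steatotic Veh, and their part was not tested. The 6 neutrophil markers summed to 56.3 to 59.2 CPM with normal Veh and 88.96 to 90.65 with normal CC. With the label steatotic they summed to 99.59 to 102.4 CPM with Veh and 259.0 to 263.0 with CC. Nearly all of it was *Mmp8* and *S100a8*, with *Ly6g* at 0 in all libraries. The 2 tested neutrophil markers were higher with CC in each label, and their part was not tested.

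**Figure D4:**
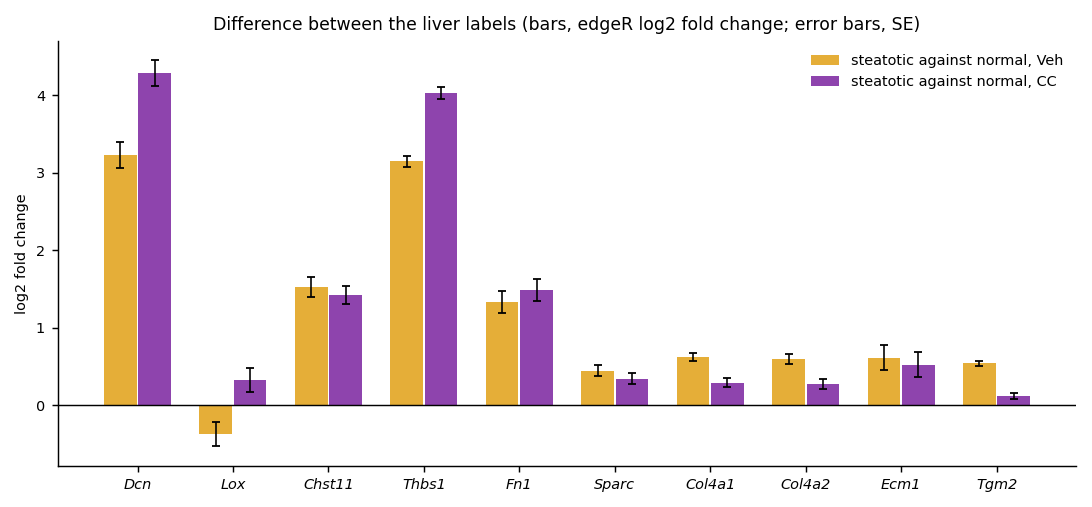
Log2 fold change of libraries labelled steatotic against libraries labelled normal for the 10 genes, with Veh and with CC, bars from edgeR and error bars the SE. *Dcn* (3.22 and 4.28) and *Thbs1* (3.14 and 4.03) stand highest, and *Lox* (-0.37 and 0.32) lies on both sides of 0.

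Levels of different genes were compared per kb of exon. *Tgm2* led in every group and *Ecm1* came next, at 117.1 and 74.99 CPM per kb with normal Veh and 140.9 and 81.6 CPM per kb with steatotic CC. *Thbs1* stood in the sixth place with normal Veh at 4.01 CPM per kb and in the third with steatotic CC at 79.7 CPM per kb, where its libraries overlapped those of *Ecm1*. *Dcn* was last with normal Veh at 0.360 CPM per kb and in the fourth place with steatotic CC at 20.8 CPM per kb, overlapping *Chst11* at 18.6. *Fn1* was last in both CC groups and *Lox* last with steatotic Veh. Other neighbours in these orders did not overlap, except *Col4a2* and *Chst11* with normal CC.

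The other matrix genes were counted from 8 lists with 152 genes, of which 147 had counts and 104 were tested. With Veh, 47 of the 104 were higher and 11 lower with the label steatotic, 55.8% called against 30.7% of all tested genes, with a median log2 fold change of 0.42 against -0.01 over all tested genes. With CC the counts were 41 higher and 12 lower, 51.0% called against 28.8%, with a median of 0.34. The filter favoured some of these counts, since *Col5a2*, *Efemp1* and *Thbs4* among the 47, and *Col5a1* as well among the 41, reached 0.5 CPM only in libraries labelled steatotic, so the counts and medians are a description. CC itself called 8 as higher and 18 as lower in the libraries labelled normal, and 13 as higher and 21 as lower in those labelled steatotic, with medians of -0.04 in each. These are 25.0% and 32.7% of the 104, against 11.8% and 22.9% of all tested genes. The 26 calls with the label normal fell to 14 without normal CC library 1 and to 16 without normal CC library 2 or normal Veh library 2, while the share of all tested genes fell to 6.67%, 7.17% and 8.16%. The response to CC differed between the labels for 11 of the 104, 4 with a larger and 7 with a smaller or more negative response in the libraries labelled steatotic, 10.6% against 3.22% of all tested genes. This count fell to 7 without normal CC library 1 and to 6 without normal CC library 2 or either steatotic Veh library, while the share of all tested genes fell to between 1.95% and 2.28%. With library size only in place of TMM, 42.2% of all CC calls in the libraries labelled normal were higher, against 53.1% with TMM, and for the label with Veh it was 45.1% against 53.4%.

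**Figure D5:**
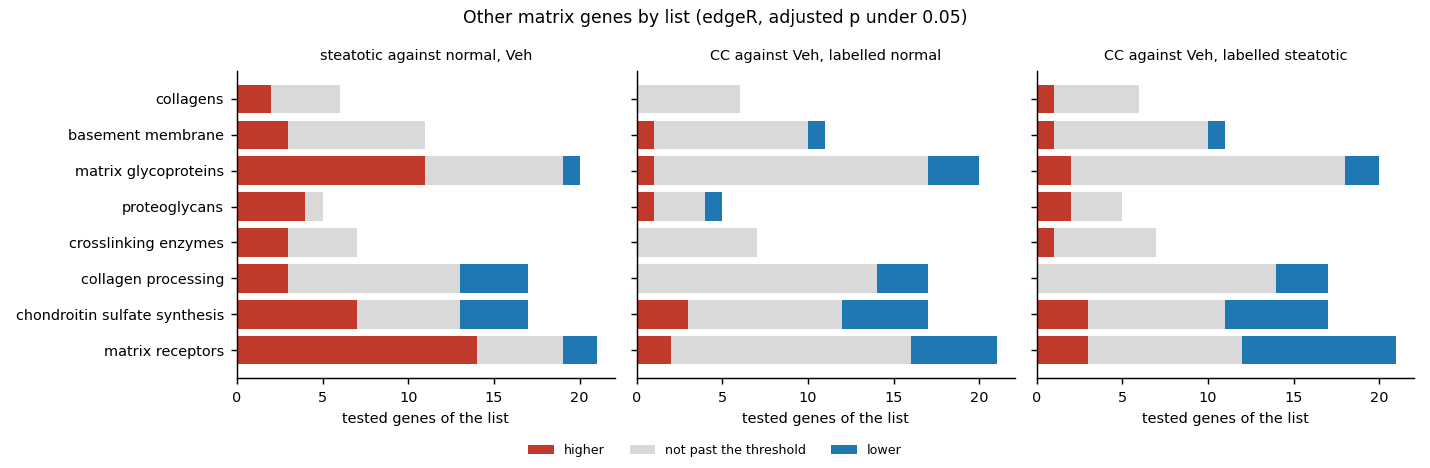
Number of tested genes in each of the 8 lists that were higher, lower or not past the threshold in 3 comparisons. Matrix receptors (14 of 21 higher) and matrix glycoproteins (11 of 20 higher) hold most of the genes higher with the label steatotic, and with CC in the libraries labelled steatotic 9 of 21 receptors and 6 of 17 chondroitin sulfate genes were lower.

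Of the other matrix glycoproteins, 11 of 20 tested, *Thbs4* and *Efemp1* included, were higher and 1 was lower with the label steatotic with Veh, where 16.4% of all tested genes were higher and 14.3% lower. *Tgfbi*, an integrin-binding glycoprotein induced by transforming growth factor β, went from 29.5 ± 1.57 CPM (SD, n = 2) with normal Veh to 1319 ± 6.96 with steatotic Veh, a log2 fold change of 5.53 (adjusted p = 1.388e-08). *Spp1*, which encodes osteopontin, was at 11.4 ± 2.08 CPM with normal Veh, 19.9 ± 0.0276 with normal CC, 54.3 ± 4.75 with steatotic Veh and 328.0 ± 16.6 with steatotic CC. *Spp1* rose with CC by 2.61 in the libraries labelled steatotic (adjusted p = 3.224e-05) and by 0.84 in those labelled normal (adjusted p = 0.008835, and 0.05574 and 0.05463 without normal CC library 1 and 2). *Emilin1*, an elastic fibre glycoprotein, fell by 1.04 with CC in the libraries labelled normal (adjusted p = 0.02226), a call lost without normal Veh library 2 (adjusted p = 0.1046) or normal CC library 1 (adjusted p = 0.1075), and by 0.69 in those labelled steatotic (adjusted p = 0.04964, up to 0.218 as libraries were left out, with the call lost without any 1 of the 6 libraries of normal Veh, steatotic Veh and steatotic CC).

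Around decorin, 5 of 12 other proteoglycan genes were tested and 4 were higher with the label steatotic in both treatments, namely *Bgn*, *Prelp*, *Srgn* and *Vcan*, where 16.4% of all tested genes were higher with Veh and 15.9% with CC. With 5 genes nothing is read from such a share. *Vcan*, which encodes the large chondroitin sulfate proteoglycan versican, was at 2.16 ± 0.273 CPM with normal Veh, 1.40 ± 0.0494 with normal CC, 15.4 ± 0.198 with steatotic Veh and 35.5 ± 2.97 with steatotic CC, and its CC responses differed by 1.82 (adjusted p = 0.002664). *Srgn*, the granule proteoglycan serglycin, rose with CC by 0.94 and 0.85 with the labels normal and steatotic (adjusted p = 0.002216 and 0.001583). Of 17 tested genes for chondroitin sulfate synthesis, the pathway of *Chst11*, 3 rose and 5 fell with CC among libraries labelled normal, 47.1% called against 11.8% of all tested genes. In those labelled steatotic 3 rose and 6 fell, 52.9% against 22.9%. *Csgalnact1*, among the 3 that rose with the label normal, reached 0.5 CPM only with CC. *Xylt1*, which starts the chain, was at 2.65 ± 0.678 CPM with normal Veh and 38.3 ± 2.61 with steatotic CC, and rose by 0.90 with CC in the libraries labelled normal (adjusted p = 0.01549, and 0.08636 without normal CC library 2) and by 1.06 in those labelled steatotic (adjusted p = 0.002655). *Chpf*, a chain-polymerising factor, was lower with the label steatotic by -0.75 with Veh (adjusted p = 0.003648).

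Around *Lox* and *Tgm2*, 7 of 10 other crosslinking genes were tested. None was called with CC in the libraries labelled normal, 1 rose in those labelled steatotic (*Tgm1*), and 3 were higher with the label steatotic with Veh and with CC (*F13a1*, *Loxl2* and *Loxl3*). These are 0.0%, 14.3% and 42.9% of the 7, against 11.8%, 22.9% and 30.7% of all tested genes with CC in either label and for the label with Veh, and with 7 genes nothing is read from such shares. That count of 0 from edgeR was also 0 at an unadjusted p under 0.05 and 0 with DESeq2. Of the other collagens, only 6 of 17 passed the filter. Type IV chains α1 and α2 made up 92.3% to 95.8% of the collagen level per kb in each library, summed over these genes and 21 others. Of 11 tested basement membrane genes, *Lamc1*, a laminin chain, rose with CC by 1.28 in the libraries labelled steatotic (adjusted p = 0.0008646) and by 0.75 in those labelled normal (adjusted p = 0.01748, and 0.09786 and 0.06862 without normal CC library 1 and 2), and *Nid2*, which links laminin to type IV collagen, fell by 0.80 and 1.13 with the labels normal and steatotic (adjusted p = 0.005552 and 0.0004904).

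In 17 tested collagen-processing genes, 3 were higher and 4 lower with the label steatotic with Veh, 41.2% called against 30.7% of all tested genes. *P4ha2*, a prolyl hydroxylase subunit, was at 5.34 ± 0.117 CPM with normal Veh and 1.89 ± 0.000675 with steatotic Veh, a log2 fold change of -1.45 (adjusted p = 0.0002117). *Pcolce2*, an enhancer of procollagen cleavage, was lower by -0.57 (adjusted p = 0.005901). *Plod1*, a lysyl hydroxylase, was at 261.0 ± 1.14 CPM with normal Veh and 407.2 ± 3.11 with steatotic Veh. In 21 matrix receptor genes 14 were higher and 2 lower with the label steatotic with Veh, 76.2% called against the same 30.7%. *Sdc1*, the syndecan 1 gene, rose by 1.17 with CC in the libraries labelled normal (adjusted p = 1.481e-05) and by 2.37 in those labelled steatotic (adjusted p = 2.471e-07). *Itga4*, an integrin chain, fell by 0.92 and 0.71 with CC with the labels normal and steatotic (adjusted p = 0.0003958 and 0.000489). *Mrc1*, the mannose receptor that takes up collagen, fell with CC by 1.64 in the libraries labelled steatotic (adjusted p = 1.584e-06) and by 0.75 in those labelled normal (adjusted p = 9.1e-05). *Itgb5*, another integrin chain, fell by 1.27 and 0.74 (adjusted p = 5.037e-06 and 0.0001649).

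The genes whose log2 CPM followed each of the 10 most closely over the 8 libraries were found among tested genes with mean log2 CPM above 3, as a description. The 8 libraries share 4 groups, so any gene with the same group pattern correlates. For *Dcn* these were *Flrt3* (Pearson r = 0.9974), *Alcam* (0.9963) and *Osbpl8* (0.9959). For *Lox* they were *Trib3* (0.9956), *Itga5* (0.9937) and *Kpna4* (0.9934), and for *Chst11* *Mxd1* (0.9948), *Abca1* (0.994) and *Stam2* (0.9936). For *Thbs1* they were *H2-Q7* (0.9988), *Ly6i* (0.9982) and *H2-Q6* (0.9974), members of families with near-identical copies whose reads may be split. For *Fn1* they were *Ccl12* (0.9973), *Ptpn22* (0.9949) and *Ifi209* (0.9948), and for *Sparc* *Trim21*, *Fcgr2b* and *Taok3* (0.9865 to 0.9834). *Bag3* was first for both *Col4a1* (0.9872) and *Col4a2* (0.9888), which themselves correlated at 0.996. For *Ecm1* and *Tgm2* the first genes were *1600012H06Rik* (0.9738) and *Rab43* (0.9815). Among the 10 genes themselves, *Lox* correlated most with *Chst11* (0.872) and was negatively correlated with *Ecm1* (-0.53), *Sparc* (-0.16) and *Tgm2* (-0.0828).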

How the data were processed

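Poly(A) RNA of 8 macrophage libraries had been sequenced from a directional kit. The authors trimmed reads with fastp, aligned them with HISAT2 to mm10 and quantified them with StringTie, as named in the submitters' processing notes without versions. The authors deposited 1 table of estimated counts for 55401 genes, whole numbers with no normalization and no replicates pooled. How StringTie coverage became counts, how many counts a fragment stands for, and whether strand was used are not given in the sources used here.

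Of 28711 genes with any count, 15202 reached 0.5 CPM in 1 or more libraries and entered the test. EdgeR 4.0.16 in R 4.3.3 was used with TMM factors (0.981 to 1.03), robust glmQLFit and glmQLFTest in 1 model of 4 group means, with Benjamini-Hochberg adjustment over all tested genes and a threshold of 0.05. SE was the log2 fold change divided by the root of F. CPM values given per library and as mean ± SD were counts scaled to the library total. A value of 3 counts equals 0.0403 to 0.0511 CPM. Among values of 1 to 20, 35.0% to 36.5% were multiples of 4, from which a fragment may stand for about 4 counts, and 3 such fragments equal 0.161 to 0.2045 CPM. These floors cover counting error only. Gene positions and exon lengths came from GENCODE M21 (GRCm38), which holds all 10 members, and promoter windows from RefSeq. Promoters of *Dcn*, *Lox*, *Thbs1*, *Fn1* and *Tgm2* are not shown. Exon overlaps with other genes (such as *Tgm2* with *Gm20412*, 633 bases, and *Rprd1b*, 370 bases) leave those counts uncertain without strand. Figures were drawn with matplotlib 3.10.9.

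The members and the gene lists were chosen with earlier results of these data known. The named genes were all 10 members, per contrast the 3 highest and 3 lowest list genes with adjusted p under 0.05 and mean log2 CPM above 1, per marker list the 3 most abundant genes and any marker at 0, per member the 3 genes of highest correlation, and *Mc4r*. Other genes named (*Cd36*, *Cd47*, genes that reached the filter on 1 side only, crosslinking and proteoglycan genes, low fibroblast markers, *Lyve1*, *Stab2* and *Bmp2*) were picked after their values were seen. Of 12 hepatocyte markers 11 were found by symbol. The cholangiocyte and mesothelial markers summed to 5.66 to 13.7 CPM and the 5 B cell markers to 1.21 to 3.02 CPM over all libraries. Alternatives were DESeq2 1.42.0, its size factors, library size only, 2 other filters, counts divided by 4, a prior count of 4, a replicate block, the 4 libraries of a comparison alone, and leaving out each library.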

Additional observations from a re-analysis of the deposited data

Results flagged for a closer look

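For 9 named genes the response to CC differed between the libraries labelled steatotic and those labelled normal, by edgeR's test of the difference itself, given here as the steatotic response minus the normal response on the log2 scale. They are *Thbs1* and *Tgm2* of the 7 members tested and 7 of the 11 called among 104 other matrix genes, where 3.22% of all tested genes were called. *Vcan*, *Spp1*, *Sdc1*, *Mrc1*, *Plod1* and *Itgb5* were named as the largest differences of this same comparison. Higher responses in the libraries labelled steatotic were seen for *Vcan* (1.82, adjusted p = 0.002664), *Spp1* (1.78, adjusted p = 0.005729), *Sdc1* (1.20, adjusted p = 0.0001194) and *Thbs1* (0.89, adjusted p = 0.005308). Lower responses were seen for *Mrc1* (-0.89, adjusted p = 0.001206), *Plod1* (-0.58, adjusted p = 0.005062), *Itgb5* (-0.53, adjusted p = 0.01129), *Tgm2* (-0.42, adjusted p = 0.00576) and *Tgfbi* (-0.35, adjusted p = 0.04368). The call of *Tgfbi* was lost with library size only (adjusted p = 0.05476) and without any 1 library other than normal Veh 2 or steatotic CC 2, with adjusted p up to 0.138. *Tgm2* went up with CC in both libraries of 1 label and down in both of the other, and *Vcan* had a lower mean with CC in the libraries labelled normal (2.16 to 1.40 CPM) and a higher one in those labelled steatotic (15.4 to 35.5 CPM).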

How the results depend on the processing

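The counts of genes called among the 10 were within 1.5 times the reported count under every alternative that kept all libraries, with 1 exception: CC in the libraries labelled normal gave 1 call in place of 4 when only those 4 libraries were fitted. Leaving out each library in turn, that count ranged from 0 to 4, with 0 without normal Veh library 1 or normal CC library 2, and the matrix list counts ranged from 14 to 25 for CC with the label normal (26 with all libraries) and from 6 to 10 for the difference between responses (11 with all). Signs turned only in leave-one-out fits of small values: *Sparc* CC normal (-0.0422 to 0.0274), *Fn1* CC normal (-0.259 to 0.0958), *Fn1* CC steatotic (-0.00788 to 0.164), *Fn1* difference between responses (-0.0152 to 0.340), *Ecm1* difference (-0.324 to 0.189) and *Chst11* difference (-0.287 to 0.0588). Fitted in their own 4 libraries alone, *Xylt1*, *Emilin1*, *Lamc1* and *Vcan* lost their CC call with the label normal (adjusted p = 0.06592, 0.06592, 0.05066 and 0.1905). A lone library was assumed to vary like the other groups. The deviations of same-numbered libraries correlated between -0.0328 and 0.0951, highest for normal Veh with normal CC. A small shared part would not show in this check, so it cannot decide whether same numbers share an animal or preparation. With the replicate block the calls fell from 1795 to 1545, 3474 to 3237, 4665 to 4371, 4384 to 4067 and 490 to 400 genes for CC normal, CC steatotic, the label with Veh, the label with CC and the difference between responses. The block ended 1 call among the 10, *Col4a2* with CC normal (0.25, adjusted p = 0.06977). It ended no other call among the 10 members. For the difference between responses DESeq2 called 734 genes.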
